A study of Mus musculus with 6 samples.

Results

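The receptors described here are those through which phagocytes sense formyl peptides, complement fragments and lipid chemoattractants. The set lists 8 mouse genes, namely the formyl peptide receptor genes Fpr1, Fpr2 and Fpr3, the complement receptor genes C5ar1, C5ar2 and C3ar1, the leukotriene B4 receptor gene Ltb4r1 and the platelet-activating factor receptor gene Ptafr. A member was taken as the transcript cluster (the array's unit of measurement for a gene) that the platform annotation pairs with exactly 1 symbol of the set. By this rule 6 of the 8 genes were found among the 22180 genes tested, each with 1 transcript cluster, and Fpr1 and Fpr3 were not analysed here. The family was put together with the high induced values of Fpr2 already known, so the values of Fpr2 are a description and carry no test.

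Myeloid cells from mouse fetal liver gave 6 samples, and the RNA of each was hybridised to 1 Affymetrix Mouse Gene 2.0 ST array. The 3 induced samples received 1000 ng/ml doxycycline for 72 hours, which the labels equate with expression of PU.1, the transcription factor of myeloid cells encoded by Spi1, and the 3 uninduced samples received none. GM-CSF, which promotes growth of granulocytes and macrophages, was present at 1 ng/ml in both groups. The labels describe neither the engineered construct nor the age or strain of the mice, do not say whether the replicates A, B and C were separate cultures, and list no sample with doxycycline but no PU.1 construct. An effect of the drug and one of PU.1 therefore cannot be told apart, and each p-value reflects just the scatter among these 6 arrays, part or all of which may be technical.

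These receptors are G protein-coupled receptors of the cell surface. Formyl peptide receptors bind peptides that start with formylated methionine, which bacteria and mitochondria make, and Fpr2 also binds host ligands such as annexin A1 and serum amyloid A. C5ar1 is the signalling receptor of the complement fragment C5a, C5ar2 binds the same fragment without classical G protein coupling, and C3ar1 binds C3a. The product of Ltb4r1, also called BLT1, binds leukotriene B4 with high affinity, and that of Ptafr binds platelet-activating factor (PAF). In neutrophils and macrophages such receptors act through inhibitory G proteins and phosphoinositide 3-kinase gamma to direct migration, degranulation and the oxidative burst.

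PU.1 binds purine-rich DNA with the core GGAA, so the bases before the start of 2 members are shown, the one with the largest difference and one whose level differed little. They are the 250 bases upstream of the RefSeq start in GRCm38.p6, the assembly of the submitters' build mm10, written 5′ to 3′ on the gene's strand, with GGAA and its reverse complement TTCC in capitals. The window of Fpr2 lies on the plus strand (chr17:17887574-17887823) and that of C5ar2 on the minus strand (chr7:16244155-16244404).
Fpr2: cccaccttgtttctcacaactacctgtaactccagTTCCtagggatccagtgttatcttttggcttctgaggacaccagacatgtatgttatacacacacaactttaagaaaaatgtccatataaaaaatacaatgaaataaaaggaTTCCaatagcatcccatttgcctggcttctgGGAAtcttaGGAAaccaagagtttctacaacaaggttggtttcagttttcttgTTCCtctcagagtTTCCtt
C5ar2: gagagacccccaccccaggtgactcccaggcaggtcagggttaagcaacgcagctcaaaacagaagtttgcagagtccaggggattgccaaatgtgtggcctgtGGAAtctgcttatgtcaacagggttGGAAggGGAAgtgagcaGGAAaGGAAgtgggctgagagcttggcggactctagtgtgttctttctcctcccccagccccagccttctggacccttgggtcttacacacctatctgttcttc
Counted on both strands, the core occurred 6 times before Fpr2 and 5 times before this start of C5ar2. All 7 windows of the 6 members held it (C5ar2 has 2 starts), as did 93.4% of 32851 windows of this length in the RefSeq table. The longer form GAGGAA, which contains the core, was in 4 of the 7 windows, once in that of Fpr2, and in 23.3% of all windows. GGAAGT was in 2 of the 7, those of C5ar1 and of the C5ar2 start shown, against 19.7% of all. The full GAGGAAGT was in 0 of the 7 and in 2.44% of all. These matches describe letters in a window and show no binding.

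Of the 6 measured receptor genes, Fpr2 alone had a large difference. At an adjusted p under 0.05 (limma, Benjamini-Hochberg over all 22180 genes), 0 of the other 5 members were higher and 0 lower, where 0.374% of all genes were higher and 1.05% lower, 1.42% in either direction. Unadjusted, 1 of these 5, C5ar1, had a limma p under 0.05 and was lower, against 16.9% of all genes that were lower and 28.3% that differed in either direction at that level. The median difference, induced minus uninduced, was -0.13 on the log2 scale over these 5 genes (0.11 after cyclic loess, an intensity-dependent scaling of the arrays) and 0.06 over all genes. Among the 11090 genes above the 50th percentile of the mean value, the median was -0.25. It was -0.24 over those of the 5 that remained there, C3ar1 being left out. With array weights, which rested largely on induced C and uninduced C, C3ar1 passed as higher and C5ar1 and Ptafr as lower, beside 5825 genes higher and 5681 lower of all tested. Counted with Fpr2, 1 of 6 members passed, which restates how the family was chosen.

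**Figure D1:**
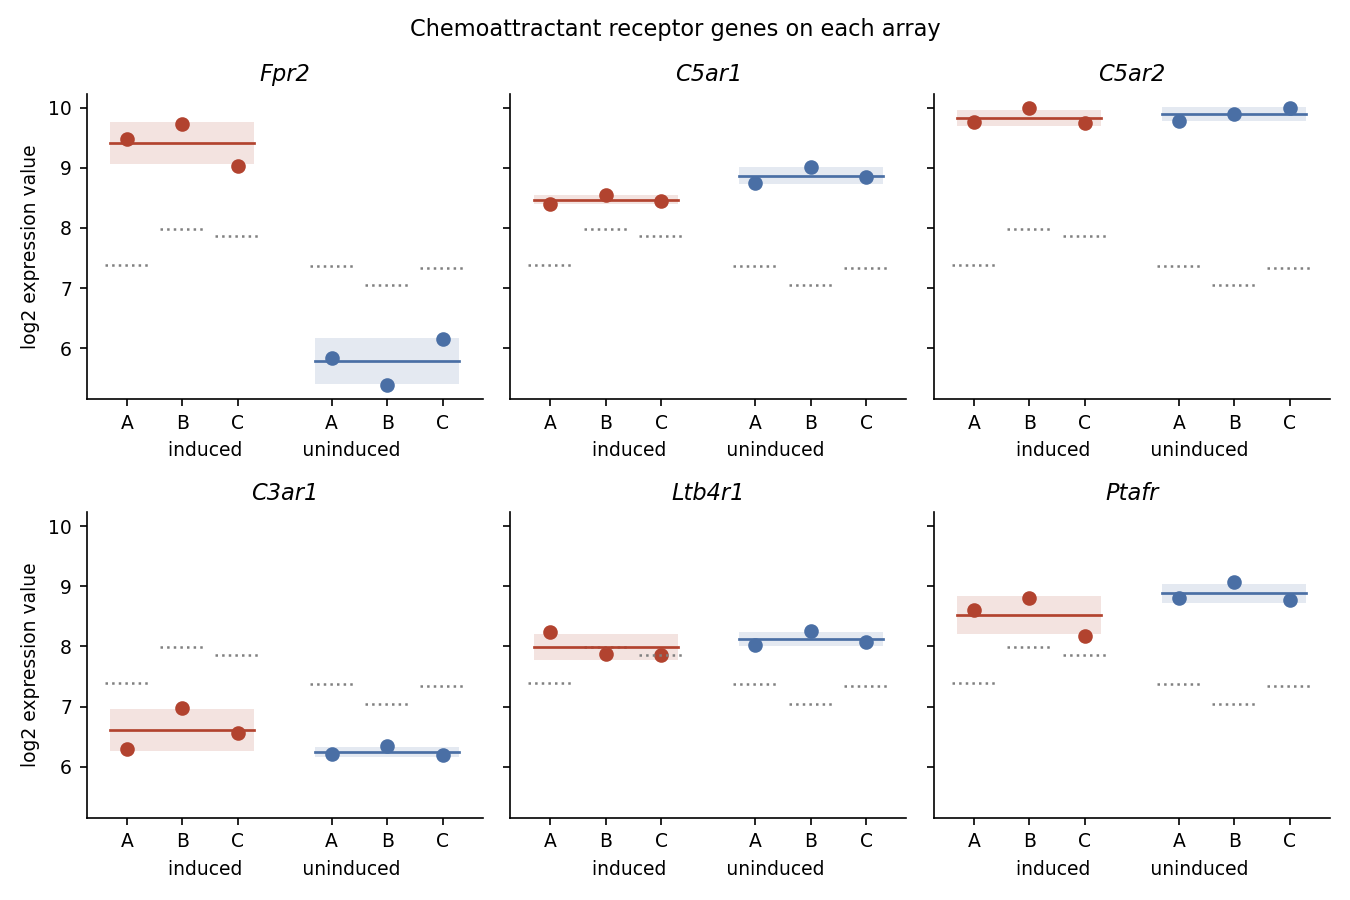
Log2 expression value (vertical axis) of each receptor gene on the 3 induced (red, left) and 3 uninduced (blue, right) arrays; lines and bands are the group mean ± SD, and each dotted line is that array's 95th percentile of olfactory and vomeronasal receptor genes. Fpr2 was above that line on all 3 induced arrays and below it on all 3 uninduced ones, while C3ar1 was below it on all 6.

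To judge whether a gene stood above background, 1390 olfactory and vomeronasal receptor genes, which myeloid cells are not known to use, served as a reference. Their 95th percentile was 7.39 on induced A, 7.99 on induced B and 7.86 on induced C, against 7.37, 7.05 and 7.34 on the uninduced arrays A, B and C. A value under that percentile is called in the range of background. The median of the reference genes was 5.12, 5.56 and 5.40 on induced A, B and C, against 5.11, 4.95 and 5.07 on uninduced A, B and C. Array medians over all 41345 transcript clusters ran from 6.64 to 6.78 in induced samples and from 6.53 to 6.62 in uninduced samples, and the arrays' interquartile ranges differed. Spi1 itself was at 9.07 ± 0.05 in induced cells and 8.76 ± 0.10 in uninduced cells (mean ± SD, n = 3 each), a difference of 0.31 that did not pass (limma adjusted p = 0.152). Its groups did not overlap, as was so in this direction for 16% of all genes. Whether the transcript cluster of Spi1 covers the engineered gene is not known here. The number of arrays limits the precision of every value below.

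Fpr2 (chromosome 17, 17887824 to 17893952 in mm10) had log2 expression values of 9.48 (A), 9.73 (B) and 9.04 (C) with induction, against 5.83, 5.38 and 6.15 in uninduced A, B and C. All 3 induced values were higher than all 3 uninduced values, and the lowest of them was well clear of the highest uninduced one. The group means were 9.42 ± 0.35 in induced cells and 5.79 ± 0.39 in uninduced cells (SD, n = 3 each), a measured difference of 3.63 (SE 0.22). Each uninduced value fell within background range, so the fold is given as a bound. Taken from the mean 95th percentile on those arrays, Fpr2 was at least 4.48-fold higher in induced cells. The difference was between 3.43 and 3.82 on the log2 scale when any 1 array was left out.

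The measured relatives of Fpr2 did not show such values. Fpr-rs3, Fpr-rs4 and Fpr-rs6 belong to the branch of the family that is expressed in sensory neurons of the mouse vomeronasal organ. Fpr-rs3 was at 7.08 ± 0.13 in induced cells and 6.92 ± 0.14 in uninduced cells (SD, n = 3 each), with overlapping groups and a difference of 0.16 (SE 0.14, limma adjusted p = 0.4). Fpr-rs4 differed by 0.11 (SE 0.24) and Fpr-rs6 by -0.01 (SE 0.13), and all 3 genes were in the range of background on all 6 arrays. The probes' sequences were not used here, so how far Fpr2's transcript cluster also takes up RNA of Fpr1 or Fpr3 was not tested.

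Fpr2 and C5ar1 were also set against the genes beside them on the chromosome, 4 measured ones on each side, a choice made after their values were seen. Around Fpr2, 0 of 8 neighbours passed the test (limma adjusted p), where 1.42% of all genes passed. Their differences ran from -0.07 to 0.55. The highest was that of Has1, a hyaluronan synthase gene, at 6.75 ± 0.03 in induced cells and 6.20 ± 0.15 in uninduced cells (SD, n = 3 each), a difference of 0.55 (SE 0.13, limma adjusted p = 0.0701) within the range of background. Fpr-rs4 and the vomeronasal receptor genes Vmn2r91, Vmn2r92 and Vmn2r94 lie on the other side and were in that range too. The Vmn2r genes are themselves among the background reference genes, so their place in that range is no separate observation. Fpr1 lies between Has1 and Fpr2, and Fpr3 between Fpr2 and Fpr-rs4, and neither was analysed here. Around C5ar1 the 8 neighbours, C5ar2 among them, differed by -0.45 to 0.33, and 0 of them passed. Of these 8, 4 were above the range of background on at least 2 arrays of a group. Of the 8 around Fpr2 only Mir99b was, with a difference of 0.45 (SE 0.15, limma adjusted p = 0.123), so Fpr2 was set mostly beside genes within background.

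**Figure D2:**
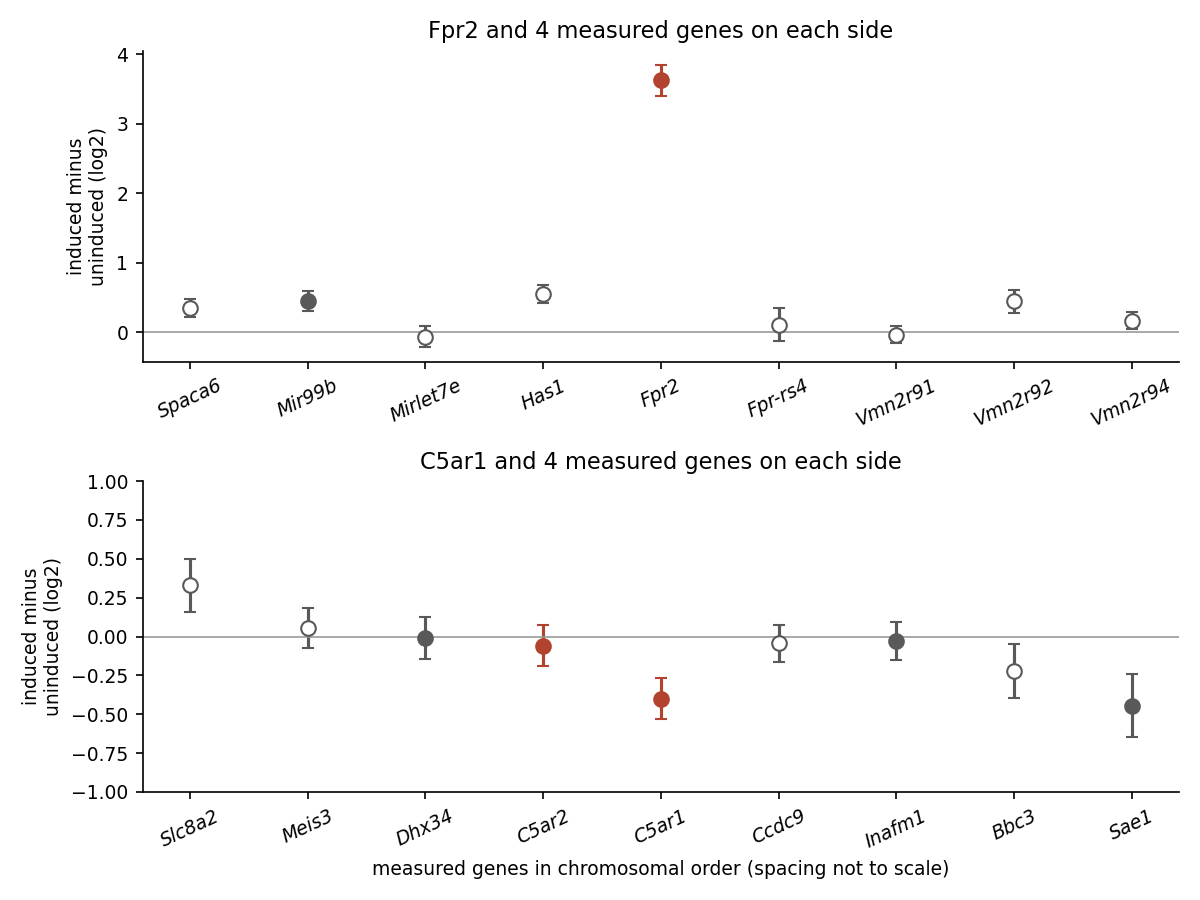
Difference in log2 expression value, induced minus uninduced, with its standard error, for Fpr2 and C5ar1 and the 4 measured genes on each side in chromosomal order; red marks members, and open points are genes above the range of background on fewer than 2 arrays of both groups. Fpr2 stood at 3.63 while its measured neighbours lay between -0.07 and 0.55. Fpr1 and Fpr3, which lie between Fpr2 and its nearest measured neighbours, were not analysed.

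Among the complement receptors, C5ar1 (chromosome 7, 16246743 to 16259540) was at 8.40, 8.55 and 8.45 in induced A, B and C, against 8.74, 9.01 and 8.85 in uninduced A, B and C. The groups did not overlap, as was so in this direction for 15.4% of all genes, and all 6 values were above the range of background. The difference of -0.40 (SE 0.13, 95% interval -0.69 to -0.11, not adjusted for the number of genes) did not pass the test over all genes (limma adjusted p = 0.123, unadjusted p = 0.0116). Its size moved with the scaling of the arrays, to -0.19 after quantile normalization, -0.54 after median centring and -0.06 after cyclic loess.

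C5ar2 (chromosome 7, 16234587 to 16244154) is the next measured gene to C5ar1. It was at 9.77, 9.99 and 9.74 in induced A, B and C, against 9.78, 9.90 and 10.00 in uninduced A, B and C. The groups overlapped almost fully, with a difference of -0.06 (SE 0.13, 95% interval -0.35 to 0.24, limma adjusted p = 0.751), which turned to 0.15 after quantile normalization and 0.30 after cyclic loess. Subtracting C5ar2 from C5ar1 within each array removes what both share. That within-array difference ran from -1.43 to -1.30 in induced samples and from -1.15 to -0.88 in uninduced samples, so the groups did not overlap. It was lower by 0.34 in induced cells as deposited, with an exact two-sided permutation p of 0.1, the smallest that 3 arrays against 3 can give. The unequal change of the 2 genes was -0.35 after quantile normalization, -0.37 after cyclic loess and -0.20 with array weights. The pair was picked for being adjacent on the chromosome, after the values were seen.

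C3ar1 (chromosome 6, 122847140 to 122856157) was at 6.29, 6.98 and 6.57 in induced A, B and C, against 6.21, 6.35 and 6.20 in uninduced A, B and C. Induced B was the highest, and induced A fell among the uninduced values, so the groups overlapped. The difference was 0.36 (SE 0.17, 95% interval -0.02 to 0.75, limma adjusted p = 0.191). It was 0.52 (limma adjusted p = 0.0384) without induced A, where 1998 of all genes passed as higher and 3535 as lower. Without induced B it was 0.18 (limma adjusted p = 0.522). Because none of the 6 values exceeded background, no fold is given. The median of the background reference genes was also highest on induced B, and its part in the difference of C3ar1 was not tested.

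Of the lipid receptors, Ltb4r1 (chromosome 14, 55765962 to 55768492) was at 8.24, 7.88 and 7.86 in induced A, B and C, against 8.03, 8.26 and 8.08 in uninduced A, B and C. Induced A was close to the highest uninduced value, whereas induced B and C were below all 3 of them. The difference was -0.13 (SE 0.15, 95% interval -0.45 to 0.20, limma adjusted p = 0.532) and became 0.11 after cyclic loess. Its values exceeded background in 2 of 3 induced samples and in all 3 uninduced samples.

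Ptafr (chromosome 4, 132564067 to 132582683) was at 8.60, 8.80 and 8.17 in induced A, B and C, against 8.81, 9.07 and 8.77 in uninduced A, B and C. Induced C was the lowest of the 6, and induced B lay within the uninduced values. The difference was -0.36 (SE 0.17, 95% interval -0.74 to 0.03, limma adjusted p = 0.195). It was -0.18 without induced C and -0.02 after cyclic loess. All 6 values were above the range of background.

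**Figure D3:**
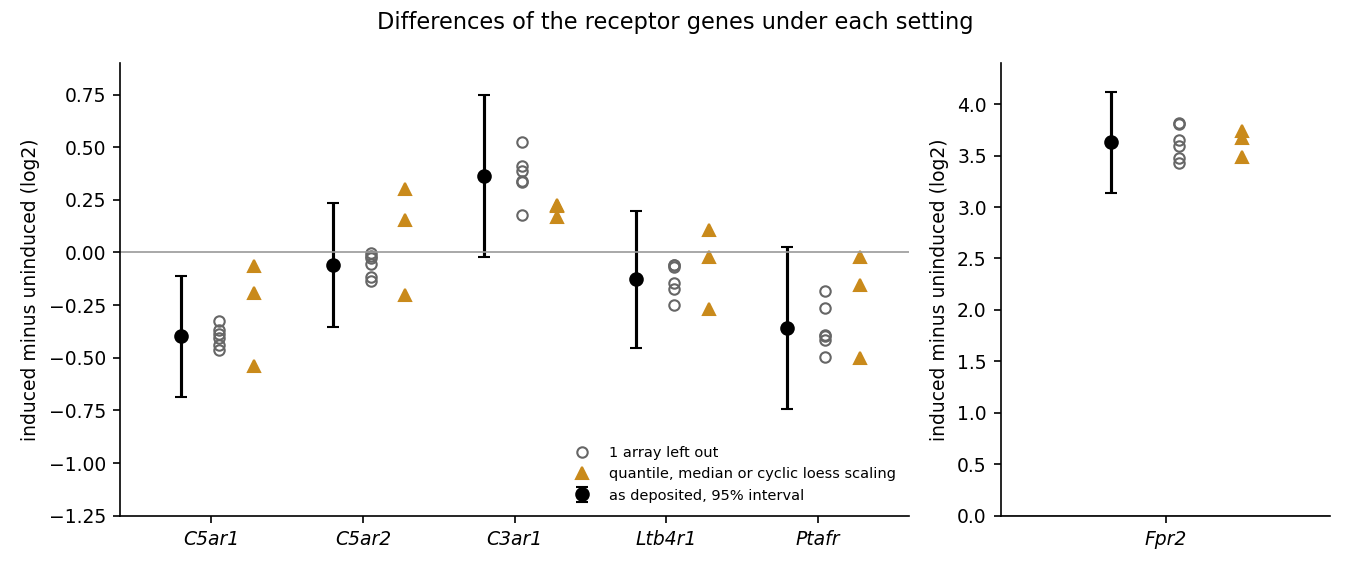
Difference in log2 expression value, induced minus uninduced, of each receptor gene as deposited (black, with its 95% interval), with each array left out in turn (open circles) and after 3 rescalings of the arrays (triangles); Fpr2 has its own axis. Fpr2 stayed above 3 throughout, whereas C5ar2 and Ltb4r1 had triangles on both sides of 0.

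The list of ligand and precursor genes also holds genes of complement activation. Of its 12 measured genes, 1 passed the test as higher in induced cells and 0 as lower. The gene that passed was Cfp, which encodes properdin. Properdin stabilises the convertase of the alternative complement pathway and is not a ligand of these receptors. Cfp was at 9.43, 9.25 and 8.67 in induced A, B and C, against 7.78, 7.50 and 7.48 in uninduced A, B and C. The groups did not overlap. Cfp rose by a log2 difference of 1.53 (SE 0.19, limma adjusted p = 0.00401), or 2.88-fold, and all 6 values were above the range of background. The call held under each of the 16 other settings tried.

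Genes of the list that encode ligands or their precursors were named after their values were seen. Anxa1, which encodes annexin A1, was at 10.14, 10.25 and 9.32 in induced A, B and C, against 9.61, 9.21 and 9.31 in uninduced A, B and C, with overlapping groups (difference 0.53, SE 0.23, limma adjusted p = 0.167). Saa3, of serum amyloid A, and Hc, which encodes complement C5, were in the range of background on all 6 arrays. Camp, the cathelicidin gene, differed by 0.27 (SE 0.23, limma adjusted p = 0.4). The list's median difference was 0.26, against 0.06 over all genes. Of its 12 measured genes, 4 were in the range of background on all 6 arrays, and only Cfp passed the test.

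Enzymes that make leukotrienes and PAF had 2 of 13 measured genes lower and 0 higher. Pla2g4a, the cytosolic phospholipase that releases arachidonic acid and the precursor of PAF, was at 8.99, 8.47 and 8.63 in induced A, B and C, against 9.43, 9.50 and 9.47 in uninduced A, B and C. The uninduced values lay close together and above all 3 induced ones. Pla2g4a fell by 0.77 on the log2 scale (SE 0.15, limma adjusted p = 0.0363), or was 1.71-fold lower. Alox5, the 5-lipoxygenase of the first step to leukotrienes, was at 9.92, 9.83 and 9.47 in induced A, B and C, against 10.38, 10.55 and 10.50 in uninduced A, B and C. It fell by 0.74 (SE 0.15, limma adjusted p = 0.039), or was 1.67-fold lower.

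The calls of Pla2g4a and Alox5 were close to the threshold. Each ended when any 1 array other than induced A was left out, with differences of -0.79 to -0.66 for Pla2g4a and of -0.79 to -0.61 for Alox5. Each also ended under each of the 3 rescalings, with differences of -0.91 to -0.41 for Pla2g4a and of -0.88 to -0.39 for Alox5, and with trended robust moderation (limma adjusted p of 0.0537 for Pla2g4a and 0.0535 for Alox5). The mean of both transcript clusters of Alox5 gave -0.62 (limma adjusted p = 0.0852). Among other genes of the path, named after their values were seen, Alox5ap, the partner protein of 5-lipoxygenase, differed by -0.04 (SE 0.12) and Lta4h, the enzyme that makes leukotriene B4, by 0.04 (SE 0.14). Lpcat2, the acetyltransferase that completes PAF, was at 9.14, 8.82 and 8.48 in induced A, B and C, against 8.24, 8.42 and 8.29 in uninduced A, B and C (difference 0.50, SE 0.17, limma adjusted p = 0.127). Its groups did not overlap, as was so in this direction for 16% of all genes. The list's median difference was -0.04.

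Of 25 measured genes of G protein and phosphoinositide 3-kinase gamma signalling, 0 passed the test by limma. At an unadjusted limma p under 0.05, 2 were higher and 4 lower, where 11.4% of all genes were higher and 16.9% lower. The median difference was -0.12, against 0.06 over all genes and -0.25 over the 11090 above the 50th percentile of the mean value. The range was -0.57 to 0.36, and 16 of the 25 were above the range of background on all 6 arrays. The brightest were Cdc42, a small GTPase of cell polarity, and Gnb1, a G protein beta subunit. Cdc42 differed by -0.10 (SE 0.13) and by 0.08 after cyclic loess. Gnb1 differed by -0.31 (SE 0.13, limma adjusted p = 0.163) and by -0.41 (limma adjusted p = 0.0445) without induced A. Without that array, 1998 of all genes passed as higher and 3535 as lower. Of 13 measured genes of receptor desensitisation and internalisation, 1 fell and 0 rose, with a median of -0.01. This was Arrb1, encoding beta-arrestin 1, which uncouples activated receptors from G proteins. Arrb1 was at 10.06, 9.68 and 9.70 in induced A, B and C, against 10.53, 10.46 and 10.56 in uninduced A, B and C. It fell by 0.70 (SE 0.14, limma adjusted p = 0.0402), or was 1.62-fold lower. The call ended when any 1 array other than induced A was left out (-0.73 to -0.63), under each of the 3 rescalings (-0.84 to -0.35), and with trended robust moderation (limma adjusted p = 0.0583). Arrb2, the other arrestin, chosen after its value was seen, differed by -0.07 (SE 0.14).

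Of 11 measured related chemoattractant receptors, which include the Fpr-rs genes, 0 passed the test by limma. At an unadjusted limma p under 0.05, 1 was higher and 0 lower, where 11.4% of all genes were higher and 16.9% lower. Of the 11, 10 were in the range of background on all 6 arrays. The remaining one, the chemerin-binding receptor gene Ccrl2, was at 7.31 ± 0.16 in induced cells and 7.23 ± 0.23 in uninduced cells (SD, n = 3 each). Its groups overlapped, and its difference of 0.08 (SE 0.15) was -0.06 after median centring, -0.03 without uninduced A and -0.01 with array weights. Over all 5 lists 1 of 74 measured genes was higher and 3 lower, with a median difference of 0.04, against the shares of 0.374% and 1.05% of all genes given above.

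**Figure D4:**
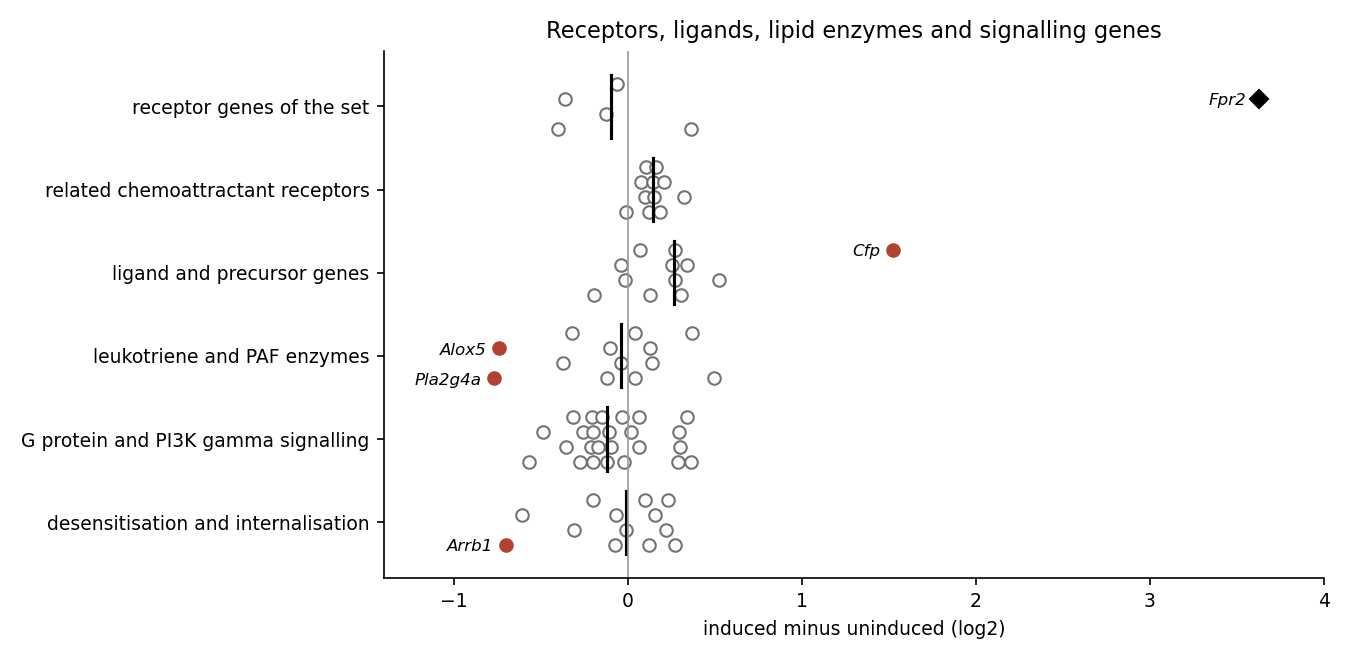
Difference in log2 expression value, induced minus uninduced, for each measured gene of the receptor set and of 5 lists of related genes; vertical offsets only separate points, black bars are list medians, red points passed limma's test over all genes, open points did not, and the black diamond is Fpr2, which is given with no test. Cfp was the only listed gene higher, at 1.53, and Alox5, Pla2g4a and Arrb1 were lower, at -0.74, -0.77 and -0.70.

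Some markers of macrophages and neutrophils were higher in the induced samples and others were not. Of 8 macrophage and monocyte markers, 5 rose and 0 fell by limma (5 higher and 1 lower at an unadjusted p under 0.05), where 0.374% of all genes rose and 1.05% fell (11.4% and 16.9% unadjusted). The summed linear value of all 8 was 9717 to 10924 in induced samples and 8767 to 9230 in uninduced samples. Adgre1, which encodes a surface receptor of mouse macrophages, was at 8.84 ± 0.54 in induced cells and 6.68 ± 0.23 in uninduced cells (SD, n = 3 each). Csf1r, the receptor of macrophage colony-stimulating factor, was in the range of background on all 6 arrays, as was Ccr2, one of the 5. Cd14, a co-receptor for lipopolysaccharide, was at 8.18 ± 0.71 in induced cells and 8.95 ± 0.41 in uninduced cells (SD, n = 3 each), a difference of -0.78 (limma adjusted p = 0.153). Ly6c2 was at 12.92 ± 0.04 in induced cells and 12.93 ± 0.06 in uninduced cells (SD, n = 3 each). It made up most of the summed linear value of these 8 markers in both groups. Of 8 neutrophil markers, 4 rose and 0 fell by limma (5 higher and 0 lower unadjusted), with a summed linear value of 20191 to 22898 in induced samples and 17140 to 18764 in uninduced samples, and Ly6g was in the range of background on all 6 arrays. S100a8, Elane, Camp and Ly6g did not pass. Cxcr2, another neutrophil chemoattractant receptor gene, was at 8.44, 9.18 and 8.38 in induced A, B and C, against 7.79, 7.61 and 7.19 in uninduced A, B and C (difference 1.13, SE 0.23, limma adjusted p = 0.0383). Its call ended when any 1 array other than induced A was left out, with differences of 0.88 to 1.28, and also after quantile normalization (1.24, limma adjusted p = 0.0612) and median centring (0.99, limma adjusted p = 0.0994). Without induced C, uninduced A or uninduced B the calls of Mpo (0.94 to 1.15) and Ltf (2.00 to 2.07) ended too. Other measured markers were of mast cells and basophils (6), erythroid cells (3) and B cells (5). Also measured were those of T and NK cells (5), hepatoblasts (4) and endothelial and stromal cells (6). Of all these, 0 passed the limma test. In the order named, 4, 3, 4, 5, 3 and 4 of them were in the range of background on all 6 arrays. At an unadjusted limma p under 0.05, 2 were higher for T and NK cells and 1 each for mast cells and hepatoblasts. At that level 1 each was lower for mast cells, erythroid cells and endothelial or stromal cells. The shares of all genes at that level are given above. More RNA per cell and more cells of a type cannot be told apart in these bulk samples, and the part of cell composition in the value of Fpr2 was not tested.

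The likeness of other genes' values to those of Fpr2 was measured over the 6 arrays among 9091 genes above the range of background on at least 2 arrays of a group. The 5 highest Pearson correlations were 0.992 for Tyrobp, an adaptor of activating receptors, 0.991 for Pram1, 0.991 for the cytokine gene Il18, 0.990 for the mitochondrial gene ND3 and 0.989 for Lyz2, a lysozyme gene. Pram1 and Il18 were above the range of background on 2 induced and 0 uninduced arrays. Both thus entered the comparison only through the group where they were high. The sizes of the differences of these 5 genes were unlike, from 3.09 for Tyrobp to 0.25 for ND3, which did not pass (limma adjusted p = 0.186). For C3ar1, which was itself in the range of background, the 5 highest among 9092 genes were 0.978 for Defb47, 0.976 for Osgin1, 0.973 for Olfr1362, 0.965 for Atp5l and 0.964 for 4930509E16Rik. With 2 groups and 6 arrays the correlations with Fpr2 mostly follow the group means. Those with C3ar1, whose groups overlapped, also follow scatter within the groups, and Olfr1362 is one of the background reference genes. All these correlations share the arrays' scaling and are given as a description.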

How the data were processed

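Deposited values are log2 expression summaries made by the authors. Per the submitters' processing notes, Partek and mouse build mm10 were used; version, background correction and normalization are not given by the sources used. That the scale is log2 was read from the values, 2.86 to 14.03. In the platform annotation held by GEO, possibly outdated, 23521 of 41345 transcript clusters had 1 symbol, 1814 several, and 16010 were not listed; a gene with several clusters was represented by the one of highest mean value. Groups came from the sample titles. The main test was limma 3.58.1 (R 4.3.3; lmFit and eBayes, two-sided, without covariates) on the 3 induced against the 3 uninduced samples, with Benjamini-Hochberg adjustment over 22180 genes at 0.05. Tested on simulated data for this comparison (22180 genes, 200 changed), the fit recovered 4% of changes of 0.5 on the log2 scale, 69% of 1 and 98% of 2, with 1 false call. The members and gene lists were chosen with earlier results of these data known. The named genes are the members, the measured Fpr-rs relatives, listed genes past the threshold (up to 4 each way per list), the 2 brightest where none passed, and the 5 genes most like Fpr2 and C3ar1. An at-least fold is the bright group's mean against the mean of the receptor reference's 95th percentile on the dim group's arrays. The alternatives were the replicate letter as a block, 3 rescalings, 2 filters on dim genes (25th and 50th percentile), trended robust moderation, cluster means, array weights, a threshold of 0.01, and each array left out. Promoter sequences are from RefSeq (GRCm38.p6), matched by symbol for all 6 measured members.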

Additional observations from a re-analysis of the deposited data

How the results depend on the processing

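Of 89 recomputed differences of the 6 receptor genes, 82 kept their direction and side of the threshold, 3 changed sign and 4 passed it. C5ar2 turned to 0.15 after quantile normalization and 0.30 after cyclic loess, and Ltb4r1 to 0.11 after cyclic loess. C3ar1 passed without induced A. Array weights took C5ar1 (-0.38), C3ar1 (0.39) and Ptafr (-0.51) past the threshold, so that 2 members were higher, Fpr2 included, and 2 lower, beside 5825 genes higher and 5681 lower of all tested. The weights were 3.46 for induced C and 4.60 for uninduced C and under 1 for the other arrays. Leaving out 1 array gave 1 to 2 members higher, 45 to 1998 of all genes higher and 47 to 3535 lower, and 1 to 3 listed pathway genes higher and 0 to 10 lower. In each of these ranges the top value came without induced A. All genes numbered 46 higher and 153 lower after median centring, 118 lower after cyclic loess, 74 higher and 158 lower after quantile normalization, and 43 higher and 55 lower at an adjusted p under 0.01, against 83 and 232. The replicate block gave 174 higher and 425 lower and changed no call of the members or of Cfp, Alox5, Pla2g4a and Arrb1. The deviations of same-lettered arrays correlated at -0.31, -0.28 and 0.42, so not every pair was above 0.1 and the letters were not used as pairs, and what they stand for is not given by the labels. Listed pathway genes numbered 1 lower after quantile normalization, 0 after median centring, 2 higher and 1 lower after cyclic loess, 1 lower with trended robust moderation, 2 lower with cluster means, 0 lower at 0.01, and 14 higher and 15 lower with array weights, against 1 and 3. Alox5, Pla2g4a and Arrb1 each lost the call after quantile normalization, after cyclic loess and with trended robust moderation, so the 1 lower gene there was none of these 3. Ccrl2 turned to -0.064 after median centring and -0.0095 with array weights, and ran from -0.028 (without uninduced A) to 0.196 when 1 array was left out, and Cdc42 turned to 0.083 after cyclic loess. Median centring moved the median of all genes to -0.08, from 0.06 as deposited, and the 50th percentile filter left out C3ar1. The share of calls that were higher was 26.3% as deposited, 41.3% after cyclic loess, 50.6% with array weights and 36.1% to 51.5% with 1 array left out. The cause of these changes was not tested.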

Other observations

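The chromosomal neighbours of the other receptor genes, 4 measured on each side and chosen by place alone after the data were seen, had 1 of 8 past the test around Ltb4r1 and 0 of 8 around each of C5ar2, C3ar1 and Ptafr, where 1.42% of all genes passed. Rabggta, a subunit of the enzyme that attaches geranylgeranyl groups to Rab proteins and a neighbour of Ltb4r1, was at 8.45 ± 0.29 in induced cells and 9.22 ± 0.07 in uninduced cells (SD, n = 3 each), a difference of -0.77 (SE 0.16, limma adjusted p = 0.0448). Neighbours of Ptafr had differences of -0.64 to 0.07, and all 8 were above the range of background on at least 2 arrays of a group. The lowest was Sesn2, a sestrin gene, at -0.64 (SE 0.16, limma adjusted p = 0.0764). Neighbours of C3ar1 had differences of -0.74 to 0.51 and include the lectin receptor genes Clec4a1, Clec4a3 and Clec4a4, which were in the range of background on all 6 arrays.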
